A study of Arabidopsis thaliana with 28 samples.

Results

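Glucosinolates are sulfur-rich defence compounds of Arabidopsis and other crucifers, and 10 genes of their synthesis were followed here through 24 h of treatment with abscisic acid (ABA), a hormone that plants make in drought. The 10 genes were taken by locus from a table of 33557 entries. In the aliphatic branch they are MYB28 (AT5G61420), MYB29 (AT5G07690), CYP79F1 (AT1G16410), CYP79F2 (AT1G16400) and CYP83A1 (AT4G13770). In the indolic branch they are MYB34 (AT5G60890), MYB51 (AT1G18570), CYP79B2 (AT4G39950), CYP79B3 (AT2G22330) and CYP83B1 (AT4G31500). Wild-type Col-0 seedlings received ABA or an ethanol mock. Harvests took place after 0.5, 1, 3, 6, 9, 12 and 24 h, and 2 libraries were made for every treatment at every harvest, 14 groups in all. All groups share the wild-type genotype. The sources used here do not give the ABA dose or the age of the seedlings. The deposited values are fragments per kilobase of transcript scaled to sequencing depth (FPKM), 1 pooled value per gene and combination, so no value below has a replicate error.

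Aliphatic glucosinolates are made from chain-elongated methionine and indolic ones from tryptophan. In both branches an enzyme of the CYP79 family converts the amino acid to an aldoxime, and an enzyme of the CYP83 family oxidises that aldoxime further. CYP79F1 and CYP79F2 act on chain-elongated methionine, CYP79B2 and CYP79B3 on tryptophan, CYP83A1 mainly on aliphatic aldoximes and CYP83B1 on the indolic one. MYB28 and MYB29 are transcription factors that turn on the aliphatic genes, and MYB34 and MYB51 do so for the indolic genes. When tissue is damaged, thioglucosidases called myrosinases cleave the compounds into products that deter insects and microbes.

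Under ABA the aliphatic CYP79F2, CYP83A1 and MYB28 were lower and the indolic MYB34 and CYP79B2 were higher. These 5 genes passed a limma test of the ABA effect averaged over the 7 times, and the other 5 did not. For the averaged effect, log2(FPKM + 1) in mock was subtracted from that under ABA at each time and the 7 differences were averaged, so its error is the spread between times. A gene passed with a Benjamini-Hochberg adjusted p under 0.05 over all 20034 genes tested, which had at least 1 FPKM in at least 2 pools. All 10 genes met that filter. In the aliphatic branch 0 of 5 genes passed as higher and 3 as lower, and in the indolic branch 2 of 5 passed as higher and 0 as lower. Among all genes tested 23.9% passed as higher and 23.2% as lower.

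**Figure D1:**
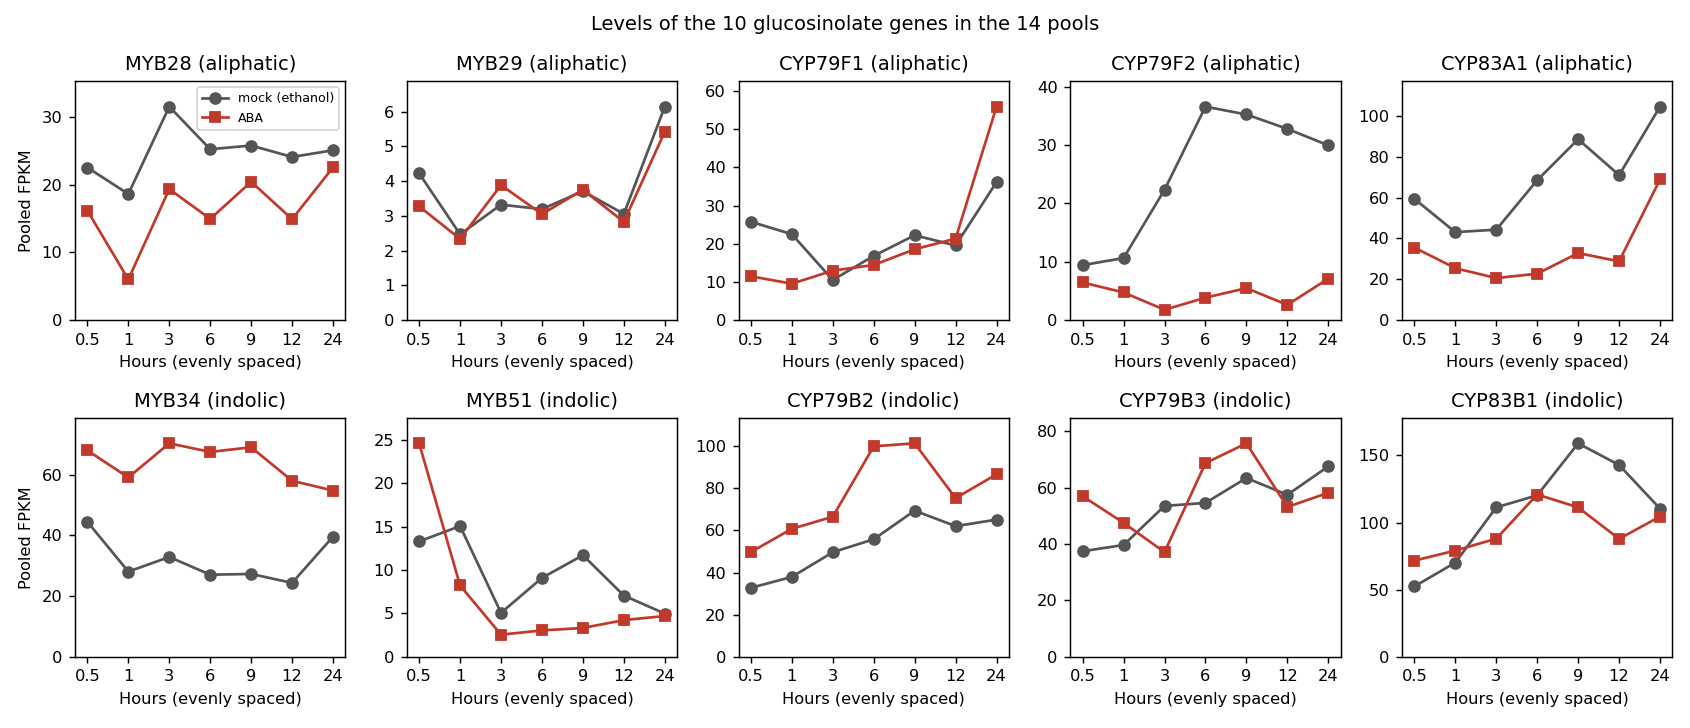
Pooled FPKM (vertical axis, each panel with its own scale from 0) of the 10 genes against hours of treatment, spaced evenly and not to scale. Grey circles are the mock pools and red squares the ABA pools, each 1 value made from 2 libraries. CYP79F2 stays between 1.77 and 7.10 FPKM under ABA while the mock pools go from 9.41 to 36.6 FPKM, and MYB34 lies above 54 FPKM in every ABA pool.

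The pools summed to 903608 to 1173233 FPKM, held 18634 to 18930 genes at 1 FPKM or more, and by the steps between low values came from about 32200000 to 51000000 fragments each. The value resting on the fewest fragments among the 10 genes, MYB29 at 2.33 FPKM after 1 h of ABA, then corresponds to about 111 fragments. The ABA marker genes RD29B, RAB18 and HAI1 had averaged log2 effects of 7.26, 6.19 and 6.25, each higher at all 7 times. Of 6 shoot markers 6 and of 8 root markers 5 reached 1 FPKM in all pools, and none was at 0. The shoot markers summed to 24700 to 69000 FPKM in mock and 28600 to 72500 FPKM under ABA, and the root markers to 65.6 to 183 and 51.4 to 175 FPKM. In the averaged test 0 of the 6 shoot markers passed, while 3 root markers were higher and 1, the iron transporter gene IRT1, lower (-2.58). By the authors' deposited calls, however, 5 of the 6 shoot markers were higher at 12 h and 5 at 24 h (18.7% and 19.2% of all genes tested). At 3 and 6 h 2 of them were called lower (20.1% and 21.4% of all genes tested). The part of shoot tissue in the results was not tested. The third of the higher root markers, CASP1, does not pass without the filter (adjusted p = 0.0657), with rescaled pools (adjusted p = 0.0574) or without any single time from 0.5 to 12 h, and the part of root tissue in the results was not tested. In bulk seedlings fewer cells of a type and less RNA per cell cannot be told apart.

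Of the aliphatic regulators MYB28 passed the averaged test and MYB29 did not. MYB28 (chr5:24689069-24691187, minus strand), which encodes the leading activator of the aliphatic genes, lay at 18.6 to 31.6 FPKM in mock (median 25.1) and at 6.02 to 22.6 FPKM under ABA (median 16.2). It was lower under ABA at 7 of 7 times, although the ranges of the 2 treatments overlap. Its averaged log2 effect was -0.64 ± 0.14 (limma standard error, adjusted p = 0.00688). The widest gap was at 1 h, where mock had 18.6 FPKM of MYB28 and ABA 6.02 FPKM. MYB29 (chr5:2446669-2448584, plus strand), whose product acts beside MYB28, had a mock median of 3.32 FPKM and an ABA median of 3.27 FPKM. Its averaged log2 effect was -0.06, with a 95% interval from -0.23 to 0.10 (adjusted p = 0.505), and it was called at 0 of 7 times in the authors' deposited table. No call at any time was made for 26.5% of the genes tested in the authors' deposited table.

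CYP79F2 and CYP79F1 lie next to each other on the plus strand of chromosome 1 in the TAIR10.1 assembly, CYP79F2 at chr1:5605044-5607498 and CYP79F1 at chr1:5608682-5612064, with 1183 bases between them. Both genes have 3 exons in their longest annotated transcript. The 250 bases before each start, from the TAIR10.1 genome, are shown because these neighbours followed different courses under ABA. Capitals mark ACGTG, the core of the ABA-responsive element, and TTGAC, the core of the W-box bound by WRKY factors, on either strand.
CYP79F2 (chr1:5604794-5605043, plus strand): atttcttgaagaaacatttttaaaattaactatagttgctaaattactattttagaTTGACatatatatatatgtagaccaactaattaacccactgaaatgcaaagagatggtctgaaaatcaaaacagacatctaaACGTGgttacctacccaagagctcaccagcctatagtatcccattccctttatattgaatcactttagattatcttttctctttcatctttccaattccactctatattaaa
CYP79F1 (chr1:5608432-5608681, plus strand): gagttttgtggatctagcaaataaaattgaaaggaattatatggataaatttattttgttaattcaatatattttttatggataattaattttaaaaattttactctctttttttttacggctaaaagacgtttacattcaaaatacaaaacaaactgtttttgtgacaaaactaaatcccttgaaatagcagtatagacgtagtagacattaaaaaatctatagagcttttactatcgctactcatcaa
The CYP79F2 window holds 1 ACGTG and 1 TTGAC, and the CYP79F1 window holds 0 of either. The longest run of bases the 2 windows share is 8 bases. Across 27443 promoters of protein-coding genes, 22.9% hold ACGTG and 44.9% hold TTGAC in the same window. Among the 10 genes ACGTG occurs before MYB28, CYP79F2, CYP83A1, MYB51 and CYP83B1, and TTGAC before CYP79F2 and MYB51. The G-box CACGTG, which contains ACGTG on both strands, occurs before CYP83A1 alone among the 10 genes and in 6.49% of all promoters. Of the transcripts, 2.74% of the 50-base windows of CYP79F2 also occur in CYP79F1, with a longest shared run of 100 bases, so fragments from such stretches may have been assigned to either gene.

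In mock, CYP79F2 stood at 9.41, 10.6, 22.3, 36.6, 35.2, 32.8 and 29.9 FPKM from 0.5 to 24 h. Under ABA it stood at 6.44, 4.74, 1.77, 3.84, 5.47, 2.60 and 7.10 FPKM at the same times. The 2 treatments did not overlap, the highest ABA pool lying below the lowest mock pool, which held for 3.70% of all genes tested. CYP79F2 had the largest averaged effect of the 10 genes, at -2.17 ± 0.34 (limma, adjusted p = 0.00126), and the mock pool was 12.6-fold above the ABA pool at 3 and at 12 h. It was called lower at 7 of 7 times in the authors' deposited table, against 1.96% of all genes tested.

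CYP79F1 took another course. Its mock pools held 25.8, 22.5, 10.5, 16.8, 22.2, 19.5 and 36.2 FPKM, and its ABA pools 11.5, 9.53, 12.95, 14.4, 18.5, 21.4 and 55.9 FPKM. The ABA pool was lower at 0.5, 1, 6 and 9 h and higher at 3, 12 and 24 h, and the treatments overlap. In the authors' deposited table CYP79F1 was called lower at 0.5 and 1 h, higher at 24 h and not at the 4 times between. Its averaged log2 effect of -0.24 has a 95% interval from -0.73 to 0.24 (limma, adjusted p = 0.378). The ratio of CYP79F2 to CYP79F1, both per length, was 0.365 at 0.5 h and 2.13 at 3 h in mock, and 0.562 and 0.137 under ABA.

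CYP83A1, the aliphatic CYP83 gene (chr4:7990429-7992429, minus strand), was lower under ABA at every time. Its mock pools held 59.4, 43.1, 44.3, 68.6, 88.7, 71.1 and 105 FPKM, and its ABA pools 35.6, 25.4, 20.6, 22.7, 32.8, 28.8 and 68.9 FPKM. The ranges overlap because the 24 h ABA pool lies above the lower mock pools. The averaged log2 effect was -1.05 ± 0.13 (limma, adjusted p = 0.000425), and all 7 times were called lower in the authors' deposited table. The widest gap was at 6 h, where the mock pool was 3.01-fold above the ABA pool. By 24 h that ratio was 1.52-fold.

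Of the indolic regulators MYB34 passed the averaged test and MYB51 did not. MYB34 (chr5:24494291-24496371, plus strand), also known as ATR1, encodes an activator of tryptophan and indolic genes. It stood at 44.5, 28.1, 32.9, 27.1, 27.3, 24.3 and 39.6 FPKM in mock. Under ABA it stood at 68.0, 59.1, 70.3, 67.5, 69.0, 58.0 and 54.8 FPKM. The lowest ABA pool lay above the highest mock pool, as for 7.34% of all genes tested. Its averaged log2 effect was 1.00 ± 0.12 (limma, adjusted p = 0.000368), and it was called higher at 7 of 7 times in the authors' deposited table, against 3.57% of all genes tested. MYB34 was steady under ABA, with its highest pool 1.28-fold above its lowest, against 1.83-fold in mock.

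MYB51 (chr1:6389399-6391386, plus strand), which encodes the other indolic activator, lay on opposite sides of mock at the first and the later times. Its mock pools held 13.3, 15.1, 5.07, 9.10, 11.7, 7.06 and 4.98 FPKM, and its ABA pools 24.6, 8.22, 2.55, 3.04, 3.32, 4.24 and 4.70 FPKM. The ABA pool was higher at 0.5 h only and lower at the other 6 times. In the authors' deposited table MYB51 was called higher at 0.5 h, lower from 1 to 12 h and not at 24 h. Its averaged effect of -0.61 ± 0.25 did not pass limma (adjusted p = 0.074), and with the 0.5 h pools left out it was -0.86 (adjusted p = 0.00531).

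CYP79B2 and CYP79B3, which encode enzymes of the same step, lie on chromosomes 4 and 2 (chr4:18525042-18527602 and chr2:9488413-9491404 in TAIR10.1, both plus strand). The 250 bases before each start are shown because this pair shares a stretch near its starts, which the CYP79F pair does not. Capitals mark runs of at least 10 bases found in both.
CYP79B2 (chr4:18524792-18525041, plus strand): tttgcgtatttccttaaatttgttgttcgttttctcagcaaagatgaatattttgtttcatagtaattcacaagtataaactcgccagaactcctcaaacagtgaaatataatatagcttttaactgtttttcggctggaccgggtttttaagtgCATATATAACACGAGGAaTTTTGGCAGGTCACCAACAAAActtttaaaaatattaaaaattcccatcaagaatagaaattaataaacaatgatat
CYP79B3 (chr2:9488163-9488412, plus strand): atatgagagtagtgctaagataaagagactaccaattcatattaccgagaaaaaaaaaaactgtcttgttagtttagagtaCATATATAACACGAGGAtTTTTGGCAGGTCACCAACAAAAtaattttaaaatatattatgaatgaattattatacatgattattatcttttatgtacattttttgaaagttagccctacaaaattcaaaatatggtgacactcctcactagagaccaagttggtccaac
The capitals cover 39 bases in each window, and the longest shared run is 22 bases, beginning 77 bases before the CYP79B2 start and 151 before the CYP79B3 start. Neither window holds ACGTG or TTGAC. Their transcripts share no 50-base window.

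CYP79B2 lay at 32.8 to 69.4 FPKM in mock (median 55.8) and at 49.8 to 101 FPKM under ABA (median 75.4). It was higher under ABA at 7 of 7 times, with overlapping ranges. The averaged log2 effect was 0.53 ± 0.08 (limma, adjusted p = 0.00125), and the authors' deposited table calls it higher at 6 times. CYP79B3 had nearly the same mock level, at 37.4 to 67.5 FPKM (median 54.6), and lay at 37.1 to 75.7 FPKM under ABA (median 57.0). Its averaged log2 effect was 0.08, with a 95% interval from -0.21 to 0.38 (limma, adjusted p = 0.618). In the authors' deposited table it was called higher at 0.5 h (37.4 against 57.0 FPKM) and lower at 3 h (53.5 against 37.1 FPKM).

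CYP83B1 (chr4:15273410-15275404, minus strand), whose enzyme takes the tryptophan-derived aldoxime toward indolic glucosinolates and away from auxin, had the highest mock median of the 10 genes, in FPKM and so per length. It lay at 52.4 to 159 FPKM in mock (median 111) and at 71.7 to 121 FPKM under ABA (median 88.0). The averaged log2 effect was -0.14, with a 95% interval from -0.45 to 0.17 (limma, adjusted p = 0.414). It was called higher at 0.5 h and lower at 9 and 12 h in the authors' deposited table. The 12 h pools of CYP83B1 held 143 FPKM in mock and 87.9 under ABA.

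**Figure D2:**
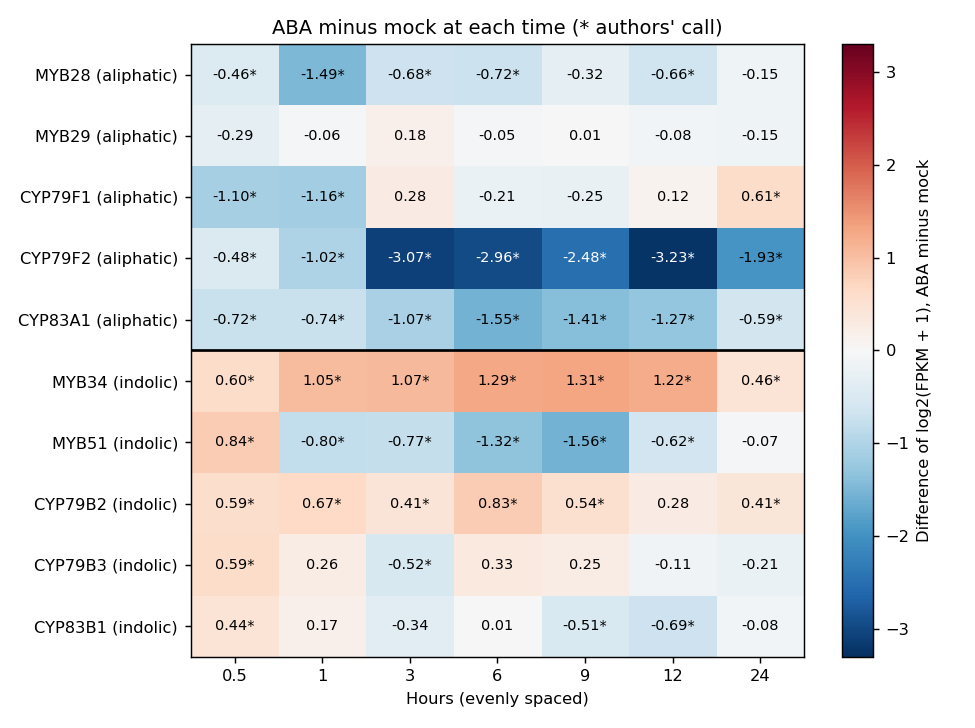
Difference of log2(FPKM + 1), ABA minus mock, for each gene (rows, aliphatic above the line) and time (columns, hours). Red is higher under ABA and blue lower, and a star marks a call in the authors' deposited table. At 0.5 h all 5 aliphatic genes are below 0 and all 5 indolic genes above 0, while from 1 h on the indolic rows differ from each other.

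Read time by time, every call at 0.5 h was higher in the indolic branch and lower in the aliphatic one. At 0.5 h, 5 of 5 indolic genes were called higher and 4 of 5 aliphatic genes lower in the authors' deposited table, where 10.2% of all genes tested were called higher and 11.3% lower. At 1 h the calls in the authors' deposited table were 4 aliphatic genes lower, 2 indolic genes higher and 1 indolic gene lower (15.5% higher and 10.2% lower among all genes). At 3 h the authors' deposited table called 3 aliphatic genes lower and 2 indolic genes in each direction (24.8% and 20.1% among all genes). At 6 h the authors' deposited table has 3 aliphatic calls lower, 2 indolic calls higher and 1 indolic call lower (22.2% and 21.4%).

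At 9 h the authors' deposited table called 2 aliphatic genes lower and 2 indolic genes in each direction (17.7% higher and 18.4% lower among all genes). At 12 h 3 aliphatic and 2 indolic genes were lower and 1 indolic gene higher by the authors' deposited table (18.7% higher and 17.9% lower). At 24 h the authors' deposited table called 1 aliphatic gene higher and 2 lower, and 2 indolic genes higher (19.2% and 18.7%). CYP79F1, MYB51, CYP79B3 and CYP83B1 were each called in both directions at different times in the authors' deposited table, as were 7.40% of all genes tested.

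The mean log2 effect over the 5 aliphatic genes was -0.61 at 0.5 h, -1.10 at 6 h and -0.44 at 24 h. Over the 5 indolic genes it was 0.61 at 0.5 h, 0.23 at 6 h and 0.10 at 24 h. The indolic mean lay above the aliphatic mean at every time, by 1.32 at 6 h and 0.54 at 24 h, while the median over all genes tested stayed between -0.03 and 0.03. CYP79F2 weighs on the aliphatic mean, with -2.96 at 6 h and -1.93 at 24 h. At 6 h the aliphatic median was -0.72 and the indolic median 0.33. At 24 h the medians lay close together, at -0.15 and -0.07. These means and medians describe chosen genes and carry no test. A trend of the ABA minus mock difference on transcript length was fitted across genes at each time. With that trend removed, the 24 h effect of CYP79F1 went from 0.61 to 0.43.

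Genes of the same step were then compared between branches. For each of 9 pairs the aliphatic effect was subtracted from the indolic effect at each time, and the 7 differences were tested with an exact two-sided sign-flip permutation test, which can give no p below 0.0156. The difference was above 0 at 7 of 7 times in 5 pairs, each with an exact p of 0.0156 and an adjusted p over the 9 pairs of 0.0281. CYP79B2 minus CYP79F2 averaged 2.70 ± 1.03 (SD over times), CYP79B3 minus CYP79F2 2.25 ± 0.89 and CYP83B1 minus CYP83A1 0.91 ± 0.36. Among regulators, MYB34 minus MYB28 averaged 1.64 ± 0.63 and MYB34 minus MYB29 1.06 ± 0.27. The 5 pairs are not separate results, since MYB34 stands in both regulator pairs and CYP79F2 in both CYP79 pairs. With averaged effects of 1.00 for MYB34 and -0.06 for MYB29, their difference comes almost wholly from MYB34. The differences of CYP79B3 (0.08) from CYP79F2 (-2.17) and of CYP83B1 (-0.14) from CYP83A1 (-1.05) come mainly from the aliphatic gene. Neither CYP79B3 nor CYP83B1 passed the averaged test. How often any 2 of the genes tested differ in 1 direction at 7 of 7 times was not examined.

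The other 4 pairs did not pass. CYP79B2 minus CYP79F1 averaged 0.77 and ranged over the times from -0.21 to 1.82 (exact permutation p = 0.0625, adjusted p = 0.0938). CYP79B3 minus CYP79F1 averaged 0.33, from -0.83 to 1.70 (exact permutation p = 0.406, adjusted p = 0.457). MYB51 minus MYB28 averaged 0.02, from -1.24 to 1.30 (exact permutation p = 0.859, adjusted p = 0.859). MYB51 minus MYB29 averaged -0.55, from -1.57 to 1.13 (exact permutation p = 0.156, adjusted p = 0.201). Each of these 4 pairs holds MYB51 or CYP79F1, which were both called in opposite directions at different times.

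**Figure D3:**
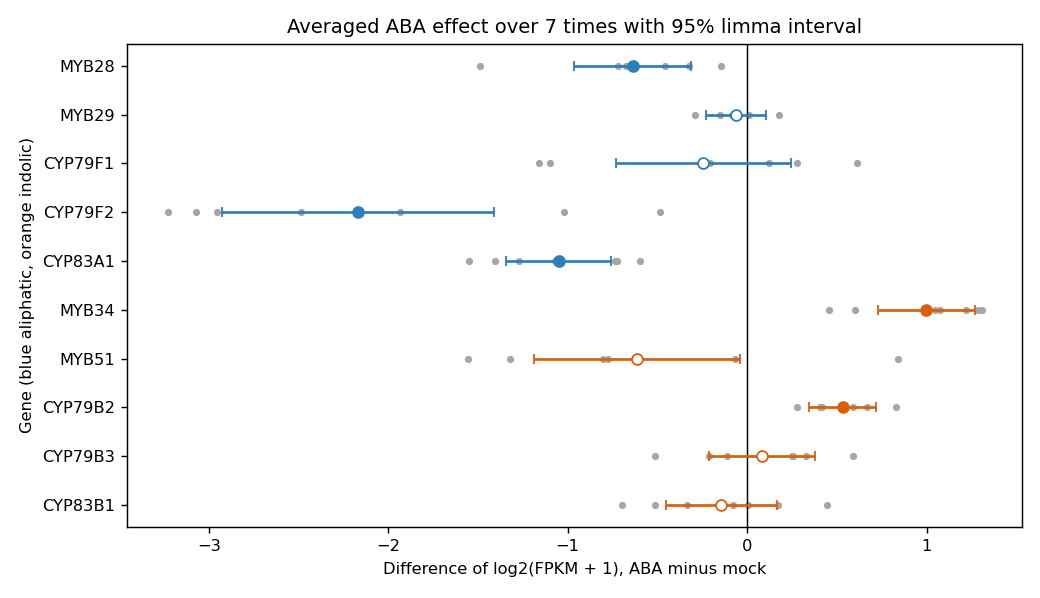
Averaged difference of log2(FPKM + 1), ABA minus mock, for each gene (horizontal axis), with its 95% limma interval. Grey points are the 7 times, blue is aliphatic and orange indolic, and filled symbols passed at an adjusted p under 0.05. CYP79F2 lies lowest at -2.17 and MYB34 highest at 1.00, and MYB51 is open because its adjusted p is 0.074 although its unadjusted interval ends at -0.04.

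A second test asked whether the ABA effect at 9, 12 and 24 h differed from that at 0.5 and 1 h. Among the 10 genes CYP79F1 passed upward, with a late minus early difference of 1.29 ± 0.26 (limma standard error, adjusted p = 0.0151), and CYP79F2 downward, with -1.80 ± 0.34 (limma, adjusted p = 0.0128). Of all genes tested 6.63% passed upward and 7.72% downward, so 1 of the 10 genes in each direction is near those shares. In this fit the ABA effects on the 2 neighbouring genes shifted in opposite directions. The CYP79F1 call is lost without the 0.5 h pools (adjusted p = 0.0655) or without the 1 h pools (adjusted p = 0.0741), and the CYP79F2 call without the 0.5 h pools (adjusted p = 0.0792). CYP83B1 had a difference of -0.74 ± 0.22 that did not pass limma (adjusted p = 0.0581).

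The mock pools show how the genes moved without ABA. Of the 10 genes 4 changed with time in mock by a limma slope on log2 hours, against 28.9% of all genes tested. All 4 rose, while over all genes tested 2807 rose and 2990 fell. CYP79F2 rose by 0.36 ± 0.06 per doubling of time (limma, adjusted p = 0.0085). CYP79B2 rose by 0.19 ± 0.03 (limma, adjusted p = 0.00597), CYP79B3 by 0.15 ± 0.03 (limma, adjusted p = 0.00727) and CYP83B1 by 0.24 ± 0.06 (limma, adjusted p = 0.0176). MYB34 had a mock slope of -0.05 (limma, adjusted p = 0.508) and MYB28 of 0.05 (limma, adjusted p = 0.416). The CYP79F2 rise does not pass without the 0.5 h pool (adjusted p = 0.0567), and that of CYP83B1 does not without the 0.5 h or the 1 h pool (adjusted p = 0.141 and 0.0686).

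The shoot markers fell in mock, 6 of 6 by the same slope test, over the hours in which these 4 glucosinolate genes rose, and the part of tissue makeup in these slopes was not tested.

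Likeness between profiles was described over the 14 pools. Pearson's r between aliphatic genes on log2(FPKM + 1) ranged from 0.203 to 0.863 over 10 pairs (median 0.576), and between indolic genes from -0.715 to 0.719 (median -0.10). CYP79F2 and MYB34 had the most negative value between branches, at -0.878. These are descriptions over pools that share times and treatment. Against the mean standardised profile of the aliphatic genes, the most similar of 14519 other genes with a mean of at least 5 FPKM was FMO GS-OX1, at r = 0.923 over 14 pools, whose product oxidises the side chain of aliphatic glucosinolates. AT1G78010 (r = 0.901), AT3G55490 (r = 0.885), AT5G22280 (r = 0.883) and the trans-acting siRNA locus TAS1B (r = 0.879) came next. For the indolic genes the closest were STT3B (r = 0.829), AT1G14230 (r = 0.826), AT3G48800 (r = 0.824), AT3G17998 (r = 0.823) and AT4G01650 (r = 0.817). The indolic mean profile joins genes with a median r of -0.10 to each other, so it need not follow any single one of them. How high r would rise by chance among 14519 genes over 14 pools was not examined.

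The rest of the pathway was read through lists chosen from knowledge of the enzymes, with earlier results of these data already known. The chain elongation list is named for the lengthening of methionine before CYP79F1 and CYP79F2 act. It had 10 of 10 genes lower in the averaged limma test and a median of -1.08. Over all genes tested 23.2% were lower and the median was 0.00. MAM3, a methylthioalkylmalate synthase gene, went from a mean of 77.3 in mock to 6.64 FPKM with ABA (averaged log2 effect -3.56). The first-step aminotransferase gene BCAT4 had means of 87.2 and 17.5 FPKM (averaged log2 effect -2.31), IPMDH1 had -1.53 and IPMI-SSU2 -1.29.

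The aliphatic core and side chain list had 4 higher and 6 lower of 12 tested genes, with a median of -0.22. Its higher genes were side chain modifiers, among them FMO GS-OX4 (averaged log2 effect 4.18, from a mean of 23.4 to 515 FPKM), FMO GS-OX2 (2.58) and GSL-OH (1.08), while the glutathione transferase gene GSTF11 had -1.28. The indolic core and side chain list had 0 higher and 3 lower of 11 tested genes, with a median of -0.20, a share near the 23.2% lower among all genes tested. The 3 lower genes were the indole-ring hydroxylase gene CYP81F2 (-2.11) and the methyltransferase genes IGMT1 (-1.67) and IGMT2 (-1.58), the last 2 sharing runs of up to 71 bases. Their relatives CYP81F1 (-0.20), CYP81F3 (0.02), CYP81F4 (-0.05) and IGMT5 (0.21) did not pass. The averaged counts of the indolic list hide a change over time. By the authors' deposited calls it had 4 genes higher and 1 lower at 0.5 h (10.2% and 11.3% of all genes tested). At 12 h it had 0 higher and 8 lower (18.7% and 17.9%). In the late minus early limma test 5 of the 11 genes passed as lower, against 7.72% of all genes tested. So did 5 of 10 chain elongation, 3 of 6 tryptophan synthesis and 2 of 5 shared core genes, with 0 higher in each list. The shift was therefore not particular to the indolic list.

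The remaining lists are read beside the 23.9% higher and 23.2% lower among all genes tested. The shared core had 1 higher and 2 lower of 5 genes (median -0.33), with GGP1 at -0.60, the C-S lyase gene SUR1 at -0.48 and GGP3 at 0.36. Tryptophan synthesis had 0 higher and 5 lower of 6 genes (median -0.48), with TSA1 at -0.76, ASA1 at -0.70 and ASB1 at -0.65. Of 3 transporter genes GTR2 was lower at -0.42. Among 8 other regulators 2 were higher and 3 lower (median 0.17), including OBP2 at 0.56, and SDI1 and SDI2, repressors of aliphatic synthesis under sulfur shortage, at -1.01 and -0.93. GGP1 does not pass without the low-value filter (adjusted p = 0.058). GGP1, GGP3, GTR2, PAT1, TSB1 and MYC4 each lose their call in some fits that leave out 1 time, GTR2 with an adjusted p of 0.0924 without 9 h. When a time was left out, 1 to 3 shared core genes and 3 to 6 tryptophan genes passed as lower. None of the chain elongation genes lost its call under any alternative.

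**Figure D4:**
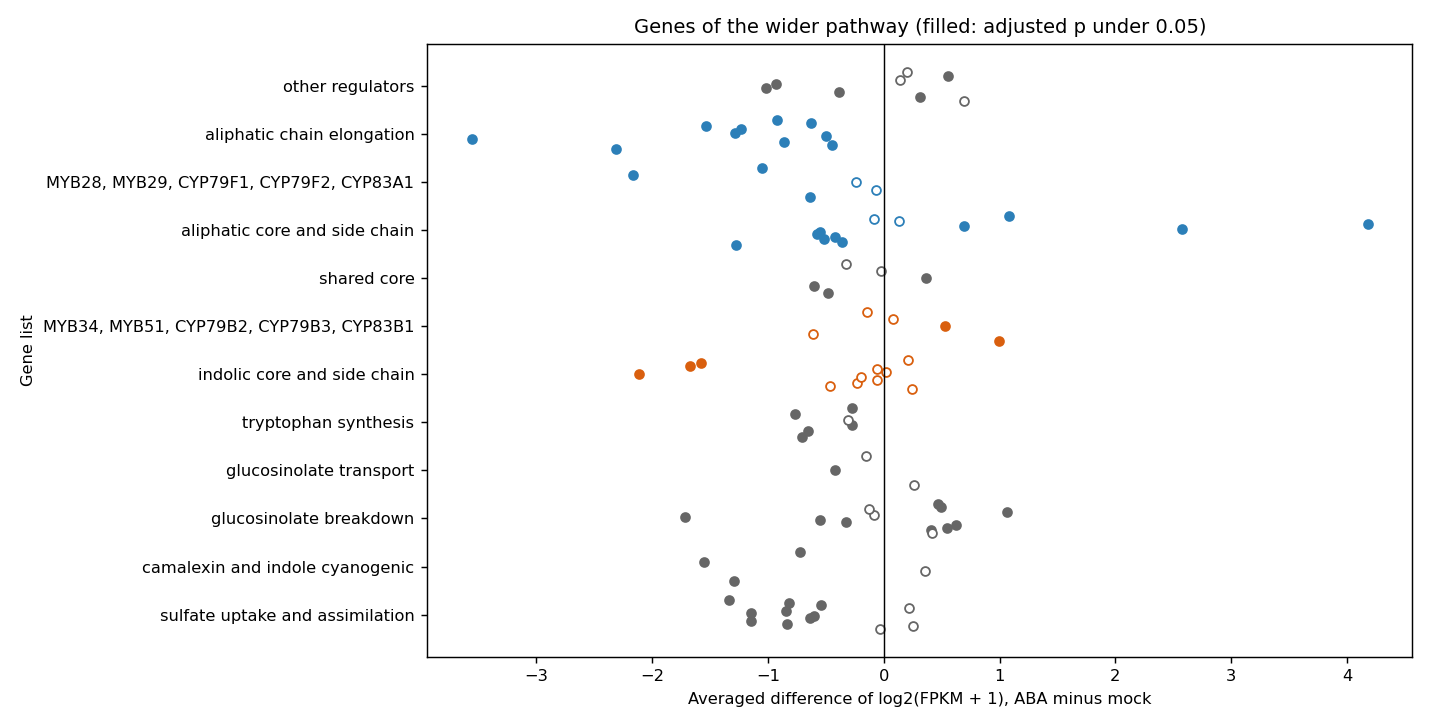
Averaged difference of log2(FPKM + 1), ABA minus mock (horizontal axis), for each tested gene of the 12 lists, with the 10 glucosinolate genes in the 2 lists named by their symbols. Filled points passed at an adjusted p under 0.05, blue is aliphatic, orange indolic and grey shared or other. All 10 chain elongation genes lie below 0, down to -3.56 for MAM3, and FMO GS-OX4 lies farthest right at 4.18.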

How the data were processed

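RNA of seedlings was sequenced in 28 libraries. The submitters' processing notes name FastQC, STAR and the TAIR10 build, without versions. The sources used here give no quantifier, no test behind the calls and no way of pooling the 2 libraries. For every gene the authors deposited a single FPKM value per group in place of 2 library values. The unit was inferred from the values, and the calls per time are theirs too. Of the entries, 32813 matched the TAIR10.1 annotation, the source of names and locations.

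Values were analysed as log2(FPKM + 1) in limma 3.58.1 under R 4.3.3, using eBayes with trend. Time was a block for the averaged effect. The late minus early effect used 3 phases, and the mock course a slope on log2 hours. These fits treat the 7 times as independent, which makes p-values too small if adjacent times resemble each other. Whether the 2 libraries of a pool came from separate cultures is not stated. Implied fragments assume transcript length minus 250 bases. The fits were run on simulated data with independent noise, which cannot show what likeness between adjacent times does to the p-values.

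The 10 genes and the lists were chosen with earlier results of these data known. Besides the 10 genes, up to 4 genes per list were named, those with the largest averaged effects among genes that passed, and up to 5 genes per branch by likeness. MYC2, MYC3, MYC4 and genes named for a lost call were added after their values were seen. Alternatives were pseudocounts of 0.1 and 5, no low-value filter, rescaled pools, removal of the length trend and leaving out each time.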

Additional observations from a re-analysis of the deposited data

Results flagged for a closer look

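The late minus early ABA effect differed from 0 by limma for 2 neighbouring genes, in opposite directions. For CYP79F1 it was 1.29, from differences of -1.10 and -1.16 at 0.5 and 1 h to -0.25, 0.12 and 0.61 at 9, 12 and 24 h. For CYP79F2 it was -1.80, from -0.48 and -1.02 to -2.48, -3.23 and -1.93. The mock level of CYP79F2 rose over the same hours, by 0.36 per doubling of time, and its part in the late minus early difference was not tested.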

How the results depend on the processing

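No paired analysis was possible because the table holds 1 pooled value per combination and no column carries a replicate number, so pairing by replicate could not be tried, while pairing by time is part of the tests. With both pseudocounts, no filter, rescaled pools and the length trend removed, the same counts of the 10 genes passed in the averaged test (2 higher and 3 lower), and leaving out a time gave 2 higher and 3 to 4 lower. For late minus early, genes passing downward went from 1 to 2 with the length trend removed, CYP83B1 (-0.76, adjusted p = 0.0461) being added, and leaving out a time gave 0 to 2 downward and 0 to 1 upward. Without 0.5 h the upward gene is MYB28 (1.11, adjusted p = 0.0376) in place of CYP79F1, and without 24 h CYP83B1 passes downward (-0.91, adjusted p = 0.0264). In the mock course it gave 3 to 5 rising and 0 to 1 falling. MYB51 minus MYB28 turned to -0.052 with a pseudocount of 0.1, and ranged from -0.19 to 0.23 when a time was left out. With 6 times the 5 passing pairs reach an adjusted p of 0.0562 in most cases, because fewer sign flips exist. Their ranges were 1.49 to 1.81 (MYB34 minus MYB28), 1.02 to 1.14 (MYB34 minus MYB29), 2.52 to 2.97 (CYP79B2 minus CYP79F2), 2.08 to 2.45 (CYP79B3 minus CYP79F2) and 0.80 to 0.97 (CYP83B1 minus CYP83A1). CYP79B2 minus CYP79F1 ranged from 0.60 to 0.94 and passed without 24 h (adjusted p = 0.0468). Pooling hides the spread between libraries, which limits every value.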

Other observations

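Genes of glucosinolate breakdown had 6 higher and 3 lower of 12 in the averaged limma test, with a median log2 effect of 0.41, against 23.9% higher and 23.2% lower among all genes tested. ESP, whose product steers breakdown away from isothiocyanates, went from a mean of 1.22 in mock to 3.45 FPKM with ABA (1.06). The root myrosinase gene TGG5 had 0.63, but 30.9% of its 50-base windows also occur in TGG4, so both values are uncertain. Among the lower genes were the beta-glucosidase genes BGLU28 (-1.71), which does not pass without the 3, 6, 9 or 12 h pools, and PYK10 (-0.55). TGG5 does not pass without 9 h (adjusted p = 0.0539) or 12 h (adjusted p = 0.0656). TGG4 does not pass with rescaled pools (0.52, adjusted p = 0.0562), without the filter (adjusted p = 0.0664) or without any single time from 3 to 24 h. The list had 4 to 6 higher and 1 to 3 lower when a time was left out.

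Genes of sulfate uptake and assimilation, which supply the sulfur of glucosinolates, had 0 higher and 9 lower of 12, with a median of -0.73, against the same 23.2% lower among all genes tested. LSU1 does not pass without 3, 6, 9 or 12 h (adjusted p from 0.0583 to 0.0698), which makes 8 lower. LSU2, a sulfur-starvation response gene, went from a mean of 164 in mock to 64.4 FPKM with ABA (-1.33), and APR3 (-1.15), ATPS3 (-1.15) and SIR (-0.84) were lower too. Of 4 tested genes that lead from the indole aldoxime to camalexin and related compounds, 0 were higher and 3 lower, namely PAD3 (-1.55), CYP71A12 (-1.29) and FOX1 (-0.72). CYP71A12 and FOX1 had means of 3.63 and 0.973 FPKM in mock and of 0.206 and 0.117 FPKM under ABA. Both met the low-value filter through mock pools alone, so only a lower call was open to them and the count of 3 is no result about the list. CYP71A12 does not pass with a pseudocount of 5 (-0.56, adjusted p = 0.0687), without the filter (adjusted p = 0.0693) or without any single time from 3 to 24 h (adjusted p from 0.0586 to 0.11), which makes 2 lower. With a pseudocount of 0.1, or without 9 or 12 h, 1 gene of the list passes as higher, and the list's median of -1.01 lies at -2.14 with a pseudocount of 0.1 and at -0.39 with 5. MYC2, a jasmonate-signalling factor that binds glucosinolate MYB proteins, had a difference of 2.44 at 0.5 h and 0.09 at 24 h. Its late minus early effect was -1.70 (limma, adjusted p = 0.00939), where 7.72% of all genes tested passed downward. MYC2 did not pass the averaged test (limma, adjusted p = 0.0643). MYC4 went the other way, with -0.85 at 0.5 h and a late minus early effect of 0.71 (limma, adjusted p = 0.0376). MYC3 had -0.02 at 0.5 h and 0.63 at 3 h, and it passed the averaged test as higher (0.32, limma, adjusted p = 0.013).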
